A study of Mus musculus with 12 samples.

Results

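The genes Tet1, Tet2, Tet3, Dnmt1, Dnmt3a, Dnmt3b, Tdg, Gadd45a, and Gadd45b encode enzymes and partner proteins that write, oxidize, or remove cytosine methylation. Their loci were read in maps of 5-methylcytosine (5mC) and 5-hydroxymethylcytosine (5hmC) in cells of the E14.5 mouse cortex. All peaks that the deposited tables assign to one of these genes as the gene with the nearest transcription start site (TSS) were taken, which gave 14 of 55085 5mC peaks and 19 of 47478 5hmC peaks. These 33 peaks belonged to 8 of the 9 genes. Dnmt3b was the nearest gene of no peak in either table, so it has no member peak and no expression value. The cells came from embryos heterozygous for both a Btg2 RFP and a Tubb3 GFP reporter and were sorted into PP (proliferative progenitors, negative for both reporters), DP (differentiative progenitors, RFP+ and GFP-), and neurons (GFP+, whether or not RFP was present). A population is therefore defined by its reporters alone. The 12 samples hold, per mark and cell type, 1 immunoprecipitated (IP) library and 1 input library. The tables give 1 mean per cell type for each peak, averaged over replicates that the labels do not list separately, so no spread between replicates can be stated, no test was made, and "higher" or "lower" below describes means only.

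DNA methyltransferases place a methyl group on cytosine, mostly where it is followed by guanine (CpG). Dnmt1 copies the pattern onto the new strand after replication, whereas Dnmt3a and Dnmt3b can methylate sites that carried no methyl group. The Tet proteins oxidize 5mC to 5hmC and to further oxidized forms, which the glycosylase Tdg can cut out so that base excision repair restores an unmodified cytosine. Gadd45 proteins are stress-inducible adaptors that have been linked to this repair. In the brain 5hmC is abundant and accumulates in the bodies of active genes as neurons mature.

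Levels are given as log2 of the mean normalized read number in a peak. Over all peaks the median 5mC difference was -0.18 from DP to neurons and -0.17 from PP to neurons, and the remaining medians of both marks lay between -0.08 and -0.0035. Every change in a mark below is the difference of 2 levels minus the median difference over all peaks of that mark, and a peak or gene was counted as changed from a log2 change of 0.58, that is about 1.5-fold. The expression columns come from earlier RNA-seq of the same cell types, and their values are comparable between cell types but not between genes, since they are not stated to be per length. Changes in expression are plain log2 ratios of these values. A value was present for 7 of 8 listed PP markers, 6 of 6 DP markers, and 5 of 6 neuronal markers, and each of these was highest in its own cell type. Among them, Btg2 and Tubb3 are the genes of the sorting reporters, so their course is not independent of the sort. The summed expression of the 3 interneuron markers with a value (of 4 listed) was 898.2 (PP), 3434 (DP), and 9244 (neurons). That of 3 of 4 microglial markers was 338.1, 206.7, and 77.5, that of 4 of 4 endothelial markers 382.3, 321.5, and 91.6, and that of 3 of 3 markers of the oligodendrocyte lineage 326.2, 445.5, and 36.1. The interneuron sum was thus highest in neurons, the oligodendrocyte sum in DP, and the others in PP. As the scores are not comparable between genes, a sum is set mostly by the genes with high scores. Single markers departed from it: Pdgfra was highest in PP (121.2, 89.8, and 29.6), and Kdr in DP (195.3, 265.6, and 56.2). None of these markers was at 0 in any cell type, and the part of these cells in the values below was not tested.

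The start windows examined for the genes held no retained peak. The 13 windows come from RefSeq (GRCm38.p6, the assembly called mm10). They cover all 9 genes, and each window holds 250 bases before and 50 after a start. Of the windows, 8 hold 20 or more CpG, against a median of 7 in 32851 windows of all genes. The RefSeq spans of Tet3 (to chr6:83457208) and Dnmt3a (from chr12:3801559) reach farther 5′ than any of their windows. Those outer 5′ ends were not examined. None of the 13 overlapped a 5mC or a 5hmC peak. The authors had left out peaks overlapping repeats, so an empty window does not show that a mark was absent. Peaks were uncommon in such windows throughout the genome, at 1.11% for 5mC and 1.26% for 5hmC, and at 0.172% and 0.586% in windows with 20 or more CpG, so an empty window was the usual case. The 250 bases before a start are shown for Tet2, Tet3, Gadd45a, and Dnmt1, as examples from CpG-dense to CpG-poor windows among genes whose expression or marks differed between cell types. They are written 5′ to 3′ on the strand of the gene, with each CpG (the letters CG, the same on both strands) in capitals.
Tet2 (chr3:133544391-133544640, minus strand): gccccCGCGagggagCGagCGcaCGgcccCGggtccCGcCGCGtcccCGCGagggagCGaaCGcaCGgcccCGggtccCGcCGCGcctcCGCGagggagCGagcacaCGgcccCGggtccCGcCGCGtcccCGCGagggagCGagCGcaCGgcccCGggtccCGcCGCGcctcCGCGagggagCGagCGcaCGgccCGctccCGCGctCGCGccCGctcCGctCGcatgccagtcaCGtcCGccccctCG
Tet3 (chr6:83441679-83441928, minus strand): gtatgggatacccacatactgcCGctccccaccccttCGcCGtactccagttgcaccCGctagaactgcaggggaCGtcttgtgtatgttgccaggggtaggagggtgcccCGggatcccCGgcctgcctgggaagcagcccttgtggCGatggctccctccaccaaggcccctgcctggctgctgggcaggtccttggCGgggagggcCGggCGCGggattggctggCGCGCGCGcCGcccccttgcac
Gadd45a (chr6:67037408-67037657, minus strand): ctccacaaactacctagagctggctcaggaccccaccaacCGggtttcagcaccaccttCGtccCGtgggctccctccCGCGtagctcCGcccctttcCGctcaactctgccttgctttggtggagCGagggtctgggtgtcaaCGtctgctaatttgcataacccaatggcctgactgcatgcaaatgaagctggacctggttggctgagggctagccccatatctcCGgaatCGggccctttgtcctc
Dnmt1 (chr9:20959889-20960138, minus strand): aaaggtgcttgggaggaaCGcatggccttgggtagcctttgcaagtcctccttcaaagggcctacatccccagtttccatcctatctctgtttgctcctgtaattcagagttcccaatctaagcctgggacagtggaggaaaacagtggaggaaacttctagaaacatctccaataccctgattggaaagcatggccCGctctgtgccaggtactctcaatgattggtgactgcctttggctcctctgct
The Tet2 window held 51 CpG in these 250 bases, and over the full 300 bases its 57 CpG were reached by 0.152% of all windows. That of Tet3 held 17, that of Gadd45a 11, and the outermost of 3 Dnmt1 windows 2. The other Dnmt1 windows held 33 and 12 CpG in their 300 bases, so that this gene also has a CpG-dense start. The nearest 5hmC peak lay 12184 bp from the Tet2 window and 1970 bp from the Tet3 window, which was the shortest distance among the 13 windows for either mark. No sequence of the peaks themselves is given here.

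The expression of both methyltransferase genes with a value was lowest in neurons. The score of Dnmt3a, a de novo methyltransferase, was 16876 (PP), 10166 (DP), and 5085 (neurons). It was 1.66-fold lower in DP than in PP and 3.32-fold lower in neurons than in PP, with log2 changes of -0.73 and -1.73. Dnmt1, the maintenance enzyme of dividing cells, had values of 18656, 17127, and 9774. It differed little between the progenitors (log2 change of -0.12) and was 1.75-fold lower in neurons than in DP (-0.81).

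Tet2 had an expression of 4689 (PP), 7353 (DP), and 7772 (neurons), 1.57-fold higher in DP than in PP. For Tet3 the values were 16371, 18896, and 19753, with log2 changes of 0.21 and 0.06. Tet1 stood at 4670, 4445, and 4011, and its changes were -0.07 and -0.15. The log2 changes of Tet1 and Tet3 thus remained under the 1.5-fold limit in both transitions, while Tet2 passed it between PP and DP.

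Gadd45a had its highest expression in DP. Its values were 304.5 (PP), 861.3 (DP), and 396.9 (neurons), 2.83-fold higher in DP than in PP and 2.17-fold lower in neurons than in DP (-1.12). The change from PP to DP stood above 94.6% of all genes in the tables. Gadd45b was at 76.1, 149.7, and 200.6, and was 1.97-fold higher in DP than in PP. Tdg was at 1158, 1437, and 1463, with log2 changes of 0.31 and 0.03.

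**Figure D1:**
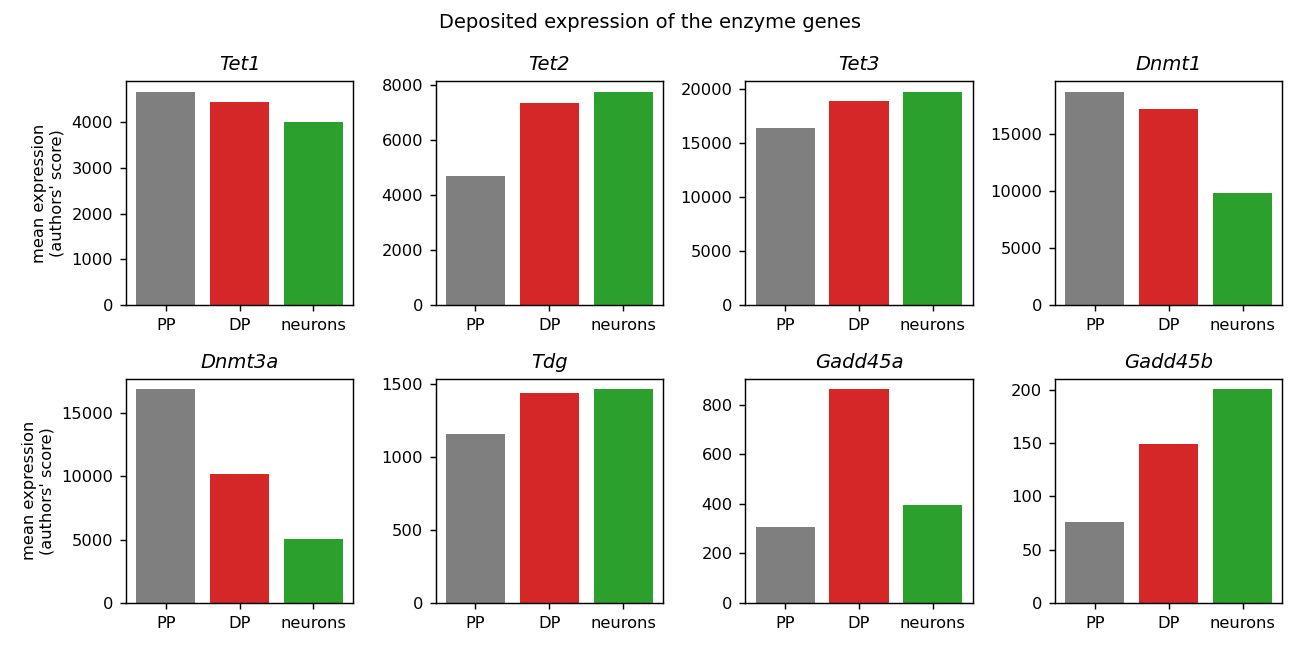
Deposited mean expression (authors' score, y axis from 0, a separate scale for each gene) of the 8 genes with a peak in PP, DP, and neurons; each bar is 1 mean without an error, as none is deposited. Dnmt3a and Dnmt1 are lowest in neurons, Gadd45a is highest in DP at 861.3, and Tet2, Tet3, Tdg, and Gadd45b are lowest in PP.

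Of the 8 genes, 3 were higher by at least 1.5-fold in DP than in PP, where 14.6% of all genes were, and 1 was lower (18.3%). From DP to neurons none was higher (27.1%) and 3 were lower (26.7%). From PP to neurons 2 were higher (30.5%) and 2 lower (31.5%). The genes are few, and these shares were not tested.

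The largest difference among the 33 peaks was in 5hmC inside Tet3. At chr6:83395905-83396032 (mm10), annotated 45.7 kb from the TSS inside the gene, the 5hmC level was 2.93 (PP), 2.46 (DP), and 5.05 (neurons). PP and DP were both low and neurons stood apart, with a change of 2.61 from DP to neurons (6.09-fold) that lay above 99.5% of all 5hmC peaks. From PP to DP the change was -0.46. The medians over all 5hmC peaks were 4.72 (PP) and 4.71 (DP). Both progenitor levels here thus stand for few normalized reads, which makes the fold uncertain. A 5mC peak, chr6:83395920-83396067, overlapped this 5hmC peak by 112 bp. Its 5mC level was 5.34, 5.42, and 5.24, and its changes were 0.08 and -0.00011, so that at this site the 5hmC means differed between DP and neurons while the 5mC means were nearly equal once the shift of all peaks was removed.

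At chr6:83403538-83403775, 38.0 kb from the TSS of Tet3, the 5hmC level was 3.59 (PP), 4.52 (DP), and 5.10 (neurons). Here the level was higher in both transitions, by 0.93 and 0.61, and the change from PP to neurons was 1.59. The next Tet3 peak began only 237 bp further, at chr6:83404012-83404153, and had 5hmC levels of 5.12, 4.80, and 4.63, a change of -0.41 from PP to neurons. Adjacent peaks of the gene thus had changes of opposite sign.

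Tet3 had 8 5hmC peaks, all inside the gene, and 11.7% of the genes with a 5hmC peak had as many or more. The remaining 5 peaks had levels between 3.76 and 5.54. The one at chr6:83411076-83411231 had levels of 3.76, 4.28, and 4.397 and changed by 0.71 from PP to neurons. The one at chr6:83416506-83416663 had levels of 4.64, 4.55, and 5.12, a change of 0.59 from DP to neurons that was just past the limit. The peak nearest to the TSS, at 2100 bp (chr6:83439498-83439659), had levels of 4.18, 3.82, and 4.36 and a change of 0.57 in the same transition, just short of it. Over the 8 peaks the median 5hmC change was -0.09 from PP to DP, 0.48 from DP to neurons, and 0.45 from PP to neurons. From PP to neurons 7 of the 8 were positive, where the median of all peaks is 0 by construction. The second 5mC peak of Tet3, 39.1 kb from the TSS, was highest in DP, with levels of 4.13, 4.65, and 3.98 and changes of 0.53 and -0.50.

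**Figure D2:**
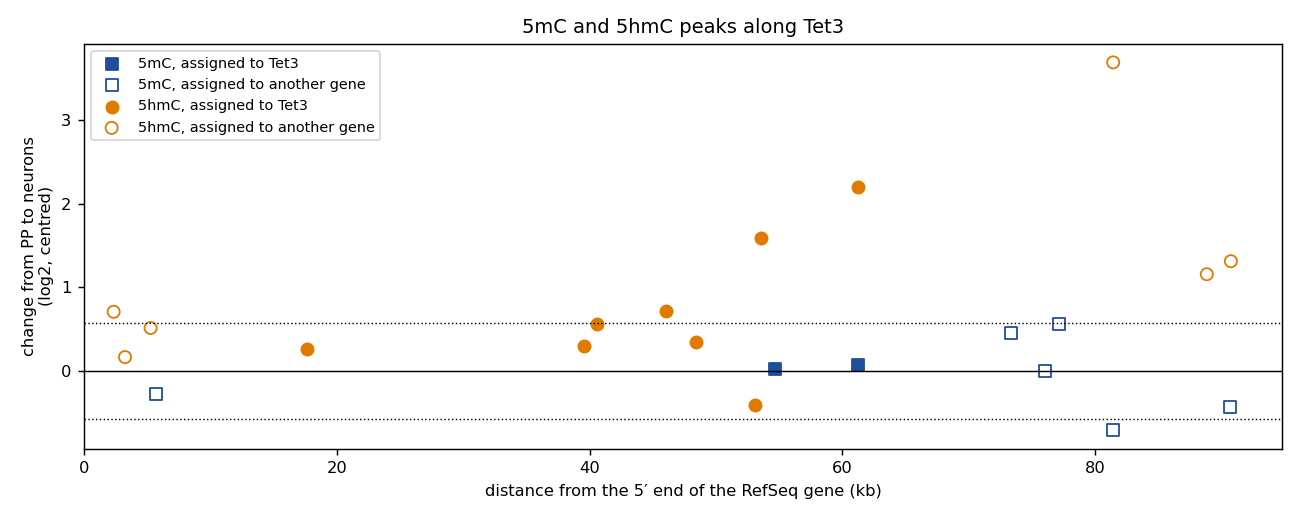
Centred log2 change from PP to neurons (y axis) of 5mC (squares) and 5hmC (circles) peaks along Tet3, by distance from the 5′ end of the RefSeq gene in kb (x axis); filled symbols are peaks assigned to Tet3, open symbols peaks in its span assigned to another gene, and dotted lines the limits of 0.58 in either direction. This 5′ end (chr6:83457208) is not the TSS from which the distances in the text are counted. Of the filled 5hmC peaks, 7 of 8 lie above 0, up to 2.20, and both filled 5mC peaks lie close to 0.

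**Figure D3:**
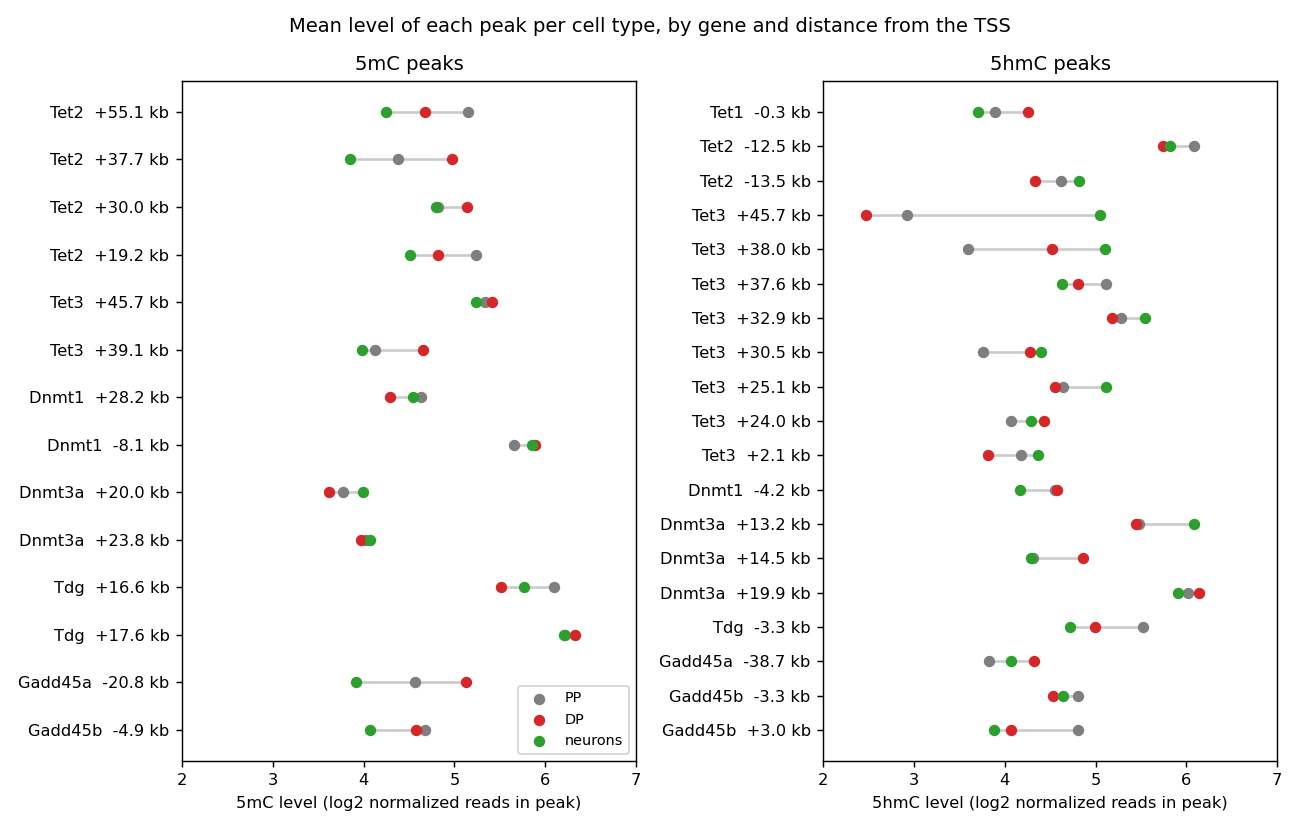
Mean log2 level (x axis) of the 14 5mC peaks (left) and 19 5hmC peaks (right) in PP, DP, and neurons, one row per peak, named by gene and signed distance from the TSS; points are means without errors. The Tet3 5hmC peak at 45.7 kb has the widest separation, with neurons at 5.05 and both progenitors below 3.

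The peaks of Tet2 carried 5mC inside the gene and 5hmC upstream of it. Of 4 5mC peaks, 2 had a lower mean in each later cell type. At 55.1 kb from the TSS (chr3:133489166-133489323) the 5mC level was 5.15 (PP), 4.67 (DP), and 4.25 (neurons), a change of -0.73 from PP to neurons. At 19.2 kb (chr3:133525107-133525263), the 5mC peak of the gene nearest to the TSS, the levels were 5.24, 4.82, and 4.51, a change of -0.55 that stayed just under the limit. The 5mC peak at 37.7 kb (chr3:133506633-133506779) was instead highest in DP. Its levels were 4.38, 4.98, and 3.85, with a change of 0.60 between the progenitors and one of -0.95 from DP to neurons. The fourth peak, at 29960 bp, was the highest 5mC peak of the gene on average, with levels of 4.82, 5.13, and 4.79. The 2 5hmC peaks lay 12.5 and 13.5 kb upstream. The nearer one had levels of 6.09, 5.74, and 5.82, the farther one 4.61, 4.33, and 4.81, and neither passed 1.5-fold in any pair of cell types.

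Tet1 had a single 5hmC peak (chr10:62899393-62899533), which the authors place 345 bp upstream of its TSS. The start window of Tet1 in RefSeq lies 11819 bp away from it, so this distance depends on the annotated transcript. Its level was 3.89 (PP), 4.26 (DP), and 3.71 (neurons), with changes of 0.37 and -0.53. It was thus highest in DP, within 1.5-fold.

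Dnmt3a had 3 5hmC and 2 5mC peaks, all inside the gene. The 5hmC peak nearest to the TSS, at 13.2 kb (chr12:3819163-3819277), had levels of 5.47, 5.45, and 6.09, and was the only one of this gene past the limit, by 0.67 from DP to neurons. The 5hmC peak at 14508 bp was highest in DP, with levels of 4.31, 4.86, and 4.29 and changes of 0.55 and -0.54. At 19.9 kb, the highest 5hmC peak of the gene (chr12:3825858-3826027; levels of 6.02, 6.14, and 5.91) overlapped a 5mC peak (chr12:3825876-3826048; levels of 3.77, 3.62, and 3.99) by 151 bp. Per 100 bp of peak, this site stood above 93.4% of all 5hmC peaks but above only 2.82% of all 5mC peaks. By that measure the shorter 5hmC peak at 13.2 kb stood higher, above 95.4%, although its mean level over the cell types was lower. The 5mC change from DP to neurons was 0.54 there and 0.27 at the peak 23.8 kb from the TSS, whose levels were 4.02, 3.97, and 4.07. Expression of the gene was lower in each later cell type.

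The 2 5mC peaks assigned to Dnmt1 lay inside the gene at 28.2 kb and upstream at 8098 bp. The inner one (chr9:20931609-20931774) had levels of 4.63, 4.29, and 4.55, and the upstream one (chr9:20967912-20968059) had levels of 5.65, 5.88, and 5.85. The only 5hmC peak, 4243 bp upstream (chr9:20964048-20964214), had levels of 4.55, 4.57, and 4.16. From DP to neurons, where expression was 1.75-fold lower, the 5mC changes were 0.44 and 0.14 and the 5hmC change was -0.38, and none passed 1.5-fold.

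For Tdg, a 5hmC peak 3305 bp upstream (chr10:82626446-82626601) had levels of 5.52 (PP), 5.00 (DP), and 4.72 (neurons). The level was lower in each later cell type, and the change from PP to neurons was -0.72, with 4.23% of all 5hmC peaks at or below it. Inside the gene, 5mC at chr10:82646388-82646503 had levels of 6.10, 5.52, and 5.77, and its change of -0.579 from PP to DP was just short of the limit. The second, 881 bp away and 17.6 kb from the TSS, held the highest 5mC among the 14 peaks assigned to these genes, with levels of 6.22, 6.33, and 6.21.

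Gadd45a was the nearest gene of 2 peaks, both far upstream. The 5mC peak at 20.8 kb (chr6:67058156-67058285) had levels of 4.57 (PP), 5.12 (DP), and 3.92 (neurons), with changes of 0.56 and -1.03, and the second was the lowest among the 14 5mC peaks in that transition. The 5hmC peak at 38.7 kb (chr6:67076046-67076209) had levels of 3.82, 4.32, and 4.07. Expression, 5mC, and 5hmC therefore all had their highest mean in DP. At these distances the tables show only that no other annotated TSS was nearer.

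Gadd45b had its expression lowest in PP, and its 3 peaks were highest in PP. The 5hmC peak 3026 bp downstream of the TSS (chr10:80933027-80933209) had levels of 4.81, 4.07, and 3.88. Its change from PP to DP was -0.74, the lowest among the 19 5hmC peaks, and from PP to neurons it was -0.84. The 5hmC peak 3260 bp upstream had levels of 4.80, 4.53, and 4.64. The 5mC peak 4938 bp upstream had levels of 4.67, 4.58, and 4.07, and its change of -0.43 from PP to neurons stayed within 1.5-fold.

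Counted over all members, few peaks passed the limit, and their shares lay near those of all peaks. In 5mC, 1 of 14 was higher from PP to DP (4.72% of all 5mC peaks) and 0 were lower (5.56%), 0 were higher from DP to neurons (5.23%) and 2 lower (9.48%), and 0 were higher (5.15%) and 1 lower (10.4%) from PP to neurons. In 5hmC, 1 of 19 was higher from PP to DP (11.3% of all 5hmC peaks) and 1 lower (4.77%). From DP to neurons 4 were higher (16.6%) and 0 lower (7.22%), and from PP to neurons 4 were higher (22.2%) and 2 lower (7.91%). Of the 4 5hmC peaks that were higher from DP to neurons, 3 belonged to Tet3 and 1 to Dnmt3a, so that they are not 4 independent loci. Over any pair of cell types, 3 of 14 5mC and 7 of 19 5hmC peaks passed, or 21.4% and 36.8%, against 26.2% and 38.9% of all peaks. The median 5mC changes of the members were 0.02, -0.07, and 0.05 from PP to DP, DP to neurons, and PP to neurons, and the median 5hmC changes were -0.08, 0.10, and 0.27, where all peaks are at 0 by construction.

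**Figure D4:**
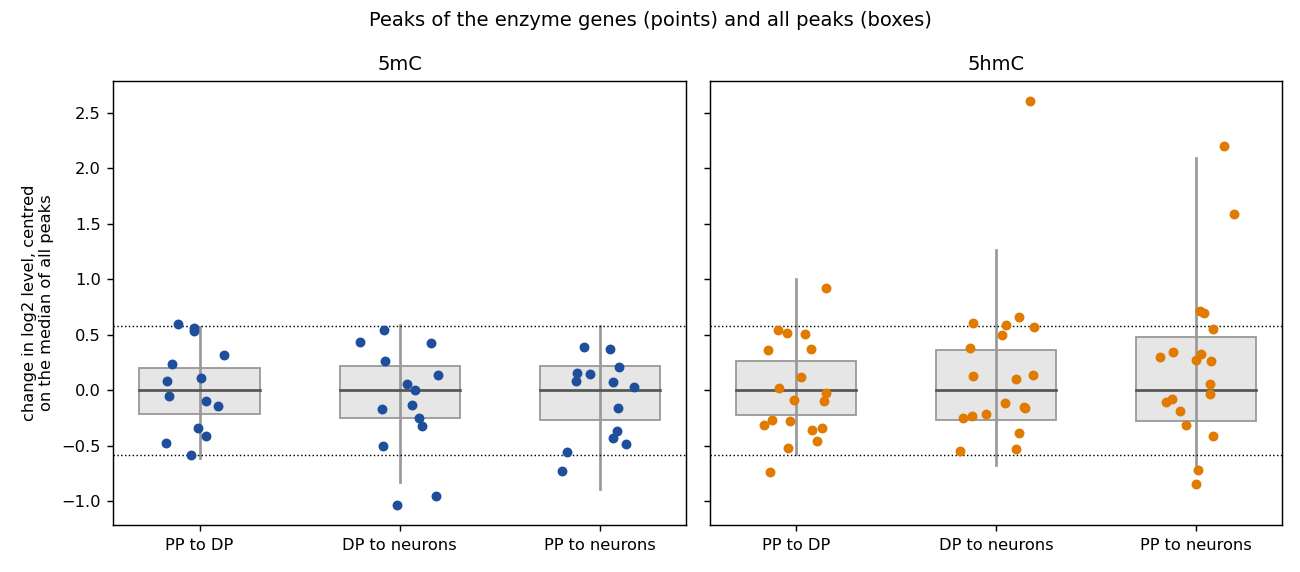
Centred log2 change (y axis) of the peaks of the enzyme genes (points) in each pair of cell types; boxes give the quartiles and median of all peaks of that mark, lines the 5th to the 95th percentile, and dotted lines the limits of 0.58 in either direction. Most points lie within the lines of all peaks, and the Tet3 5hmC peak at 2.61 from DP to neurons lies above them.

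The 33 peaks were short, with median widths of 155 bp in 5mC and 161 bp in 5hmC against 144 and 164 bp over all peaks. Inside the gene lay 11 of the 14 5mC peaks (78.6%, against 40.2% of all 5mC peaks) and 11 of the 19 5hmC peaks (57.9%, against 36.2%), 8 of the latter in Tet3. This difference was not tested. Only 2 of the 14 5mC peaks overlapped a 5hmC peak, the ones at Tet3 and Dnmt3a described above, a share of 14.3% against 12.2% of all 5mC peaks.

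The marks of a peak and the expression of its gene were set side by side by their sign. From PP to DP, the change in 5mC was opposite to that in expression at 5 of 14 peaks (35.7%, against 50.9% of all 5mC peaks with a nonzero ratio), and the change in 5hmC at 14 of 19 (73.7%, against 49.0%). In the next transition, 11 of 14 peaks were opposite in 5mC (78.6%, against 51.8%) and 5 of 19 in 5hmC (26.3%, against 49.8%). Peaks of a gene share its expression value, and these shares rest on 7 genes in 5mC and 8 in 5hmC, with Tet3 alone giving 8 of the 19 5hmC peaks. A sign was also counted where a change was close to 0. From DP to neurons the expression changes of Tet2 (0.08), Tet3 (0.06), and Tdg (0.03) were of this kind. From PP to DP that of Tet1 was -0.07. The shares therefore do not show a relation between marks and expression. Dnmt3a, the gene with the largest expression difference between PP and neurons, had peaks with 5hmC changes from -0.03 to 0.70 in this pair, whereas Tet3, with the widest 5hmC differences, changed 1.21-fold in expression.

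**Figure D5:**
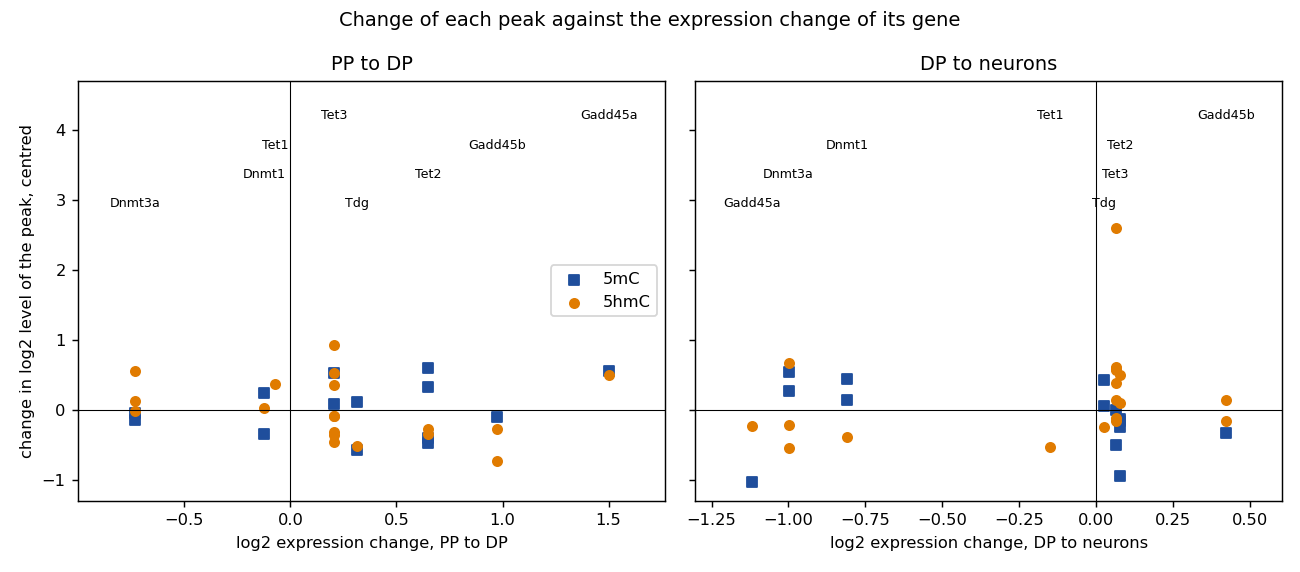
Centred log2 change of each peak (y axis) against the log2 expression change of its gene (x axis) for PP to DP (left) and DP to neurons (right); squares are 5mC and circles 5hmC, peaks of a gene stand in a column under its name. The Tet3 5hmC peak at 2.61 stands over an expression change of 0.06.

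Other genes of the pathway were read from a list of 46, of which 37 had a peak and therefore an expression value. From PP to DP 4 of them were higher and 4 lower by at least 1.5-fold (14.6% and 18.3% of all genes), with a median log2 change of 0.08 (-0.02 over all genes), and from DP to neurons 5 were higher and 13 lower (27.1% and 26.7% of all genes), with a median of -0.24 (0.01 over all genes). Uhrf1, which guides Dnmt1 to newly replicated DNA, had an expression of 14998 (PP), 9397 (DP), and 496.6 (neurons), log2 changes of -0.67 and -4.24. Also lower in neurons than in DP were the chromatin remodeller Hells (-3.42) and the replication clamp Pcna (-2.61), so that 3 of the 4 maintenance partners passed the limit downward in that transition (26.7% of all genes), beside the -0.81 of Dnmt1.

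Of the 9 base excision repair genes with a value (10 listed), Ung, which removes uracil, was lower in both transitions (-1.11 and -3.72), and Neil3 (-5.38) and Xrcc1 (-1.08) were lower from DP to neurons. The repair polymerase gene Polb was higher in both, with an expression of 868.8, 1513, and 2785. Gadd45g had the course of its relative Gadd45a, at 3512 (PP), 13937 (DP), and 4300 (neurons). Among the genes that act on Tet proteins or supply their cofactor, Cxxc4 was lower in DP than in PP (-0.72), Idh1 was higher in neurons than in DP (1.07), and Idh2 (-1.29) and Cxxc5 (-0.61) were lower. The methyl donor genes Ahcy (-1.05) and Mtr (-0.86) were lower in neurons than in DP. Past the limit were also Zbtb38 (1.88) and Kdm2b (0.75) from PP to DP and Zbtb4 (0.95) from DP to neurons, as were the deaminase genes Apobec1 (-1.88 and -5.05) and, from DP to neurons, Apobec3 (-3.24) and Apobec2 (0.90). The value of Apobec2 did not exceed 14.2 in any cell type.

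The peaks of this list were counted in the same way. Of its 105 5hmC peaks, 6 were higher and 10 lower from PP to DP (5.71% and 9.52%, against 11.3% and 4.77% of all 5hmC peaks), so that more were lower than higher, unlike over all peaks. From DP to neurons 18 were higher and 9 lower (17.1% and 8.57%, against 16.6% and 7.22%), and from PP to neurons 19 and 12 (18.1% and 11.4%, against 22.2% and 7.91%). Of its 119 5mC peaks, 2 were higher and 5 lower from PP to DP (1.68% and 4.20%, against 4.72% and 5.56% of all 5mC peaks), 6 and 7 from DP to neurons (5.04% and 5.88%, against 5.23% and 9.48%), and 4 and 13 from PP to neurons (3.36% and 10.9%, against 5.15% and 10.4%). These differences were not tested. The peaks were unevenly spread over the list, with 24 of the 105 5hmC peaks at Mbd2 and 20 of the 119 5mC peaks at Mtr. They are therefore not independent loci, and the counts need not hold for the pathway as a whole.

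For each of the 8 genes, the gene with the most similar expression course was taken as the one at the smallest distance over both log2 changes, among 10743 genes with a mean expression of at least 100. They were Ddx1 for Tet1 (distance of 0.011), Nbr1 for Tet2 (0.040), Zfp622 for Tet3 (0.012), Arl6ip6 for Dnmt1 (0.0049), Cntfr for Dnmt3a (0.038), Ptpn12 for Tdg (0.0025), Cbfa2t2 for Gadd45a (0.12), and Tekt1 for Gadd45b (0.022). The course has only 3 values per gene. The distance was largest for Gadd45a, at 0.12. Its course with a maximum in DP was not particular to it, since Gadd45g and all 6 DP markers also had one.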

How the data were processed

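(h)MeDIP reads of PP, DP, and neurons were aligned by the authors to mm10 with BWA v0.7.8, peaks were called with SICER v1.1, and peaks found in all replicates were merged, leaving out those overlapping repeats. DNA of the sorted populations carried barcodes and was immunoprecipitated as a mixture. The deposited level columns hold log2 of the TMM-normalized read level in a peak, averaged by the authors over replicates with DiffBind. The deposited expression columns hold a score per gene from earlier RNA-seq by the authors, whose scale is not named, and the deposited distance column holds a score in bp to the TSS from HOMER v4.7. The further columns hold the authors' own fold changes and p-values between cell types for the marks and for expression, and none was used. No counts, replicate levels, or input signal are in the tables, so the depth behind a peak is unknown.

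Differences of levels were centred on the median over all peaks of a mark and counted from a log2 difference of 0.58, and the ratio of expression values was taken without a pseudocount. Where a symbol occurs several times, its first expression value was used. No test was made, since each cell type has 1 value. Peaks given by their own values were all members past the limit and, per gene and mark, the highest peak and that nearest to the TSS, and further member peaks were added after their values were seen. The members and lists were chosen with earlier results of these data known. The values of 1 gene of the pathway list are not reported here, although it is part of the list's counts. Alternatives were plain differences, a stricter limit, a level and a distance minimum, autosomal centring, other overlaps, a pseudocount, and centred expression. The centring and counting of changes and the overlap of peaks were tested on simulated data, and the other steps were not. Sequences and gene spans came from RefSeq (GRCm38.p6), where all 9 symbols matched. Versions were python 3.11.15, pandas 2.3.3, numpy 2.4.6, and matplotlib 3.10.9.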

Additional observations from a re-analysis of the deposited data

How the results depend on the processing

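With a log2 limit of 1 in place of 0.58, no 5mC peak was higher from PP to DP (0) or lower from PP to neurons (0), 1 was lower from DP to neurons, and in 5hmC 0 were higher and 0 lower from PP to DP, 1 was higher from DP to neurons, and 2 were higher and 0 lower from PP to neurons. The share of all peaks past this stricter limit was not computed, so these lower counts cannot be read as particular to the members. Without centring, 1 5mC peak was lower from PP to DP (Tdg) and 4 from PP to neurons instead of 1. With peaks inside the gene or at most 10 kb from its TSS only, the 5mC peaks lower from DP to neurons were 1, since the peak of Gadd45a was left out. Peaks inside the RefSeq spans of the genes that the tables assign elsewhere were added as an alternative chosen after seeing the data. This enlarged the set by 19 5mC and 6 5hmC peaks. It gave 1 5mC peak lower from PP to DP (5.56% of all 5mC peaks) and 3 higher from DP to neurons (5.23%). From PP to neurons 1 was higher (5.15%) and 4 lower (10.4%). In 5hmC 4 were higher from PP to DP (11.3% of all 5hmC peaks) and 8 from PP to neurons (22.2%). These counts are out of more peaks than those given above. The other 61 recomputed counts stayed within 1.5 times the value given, among them all those with a level minimum of 4, centring on autosomal peaks, other overlaps, and a pseudocount of 10. The 32 recomputed expression changes of single genes moved by less than 0.1 on the log2 scale. No paired analysis was possible because the tables give 1 mean per cell type, and for the same reason no replicate could be left out. Depth limits all levels by an unknown amount, most at low ones such as 2.46 in DP at Tet3.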

Other observations

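The tables assign a peak to the nearest TSS, and peaks inside a long gene can therefore carry the name of a neighbour. Within the RefSeq spans of the 9 genes lay 30 5mC and 17 5hmC peaks, of which 19 and 6 were assigned to another gene. This was looked at after the data were seen. Dnmt3b, the de novo methyltransferase without a peak of its own name, held 1 5mC peak near its 3′ end (chr2:153686206-153686384), assigned to Gm14490, with levels of 4.23 (PP), 4.51 (DP), and 4.65 (neurons), a centred change of 0.59 from PP to neurons. Tet1 held 8 5mC peaks, all assigned to Ccar1. The highest, chr10:62812821-62812940, had levels of 8.08, 7.93, and 7.87, whereas at chr10:62833975-62834174 the levels were 5.17, 4.35, and 3.76, a centred change of -1.24 from PP to neurons. From DP to neurons that peak changed by -0.41, and the one at chr10:62813653-62813778 by -0.76 (levels of 5.35, 5.52, and 4.58). Others differed in the opposite direction from DP to neurons, by 1.05 at chr10:62822576-62822738 (levels of 3.74, 3.27, and 4.14) and by 0.71 at chr10:62838317-62838439 (4.50, 4.36, and 4.90). Between PP and neurons, 2 of the 8 were lower by at least 1.5-fold (10.4% of all 5mC peaks) and 0 were higher (5.15%). These counts depend on the limit. Of the 2 lower peaks, the one at chr10:62813653-62813778 was just past it, at -0.61. Just short of it upward were the peaks at chr10:62822576-62822738 and chr10:62838317-62838439, both with a change of 0.57. The 4 further 5mC peaks in Dnmt1, assigned to Eif3g, were all within 1.5-fold between PP and neurons, but the one at chr9:20929131-20929320 changed by 0.70 from DP to neurons, with levels of 5.01, 4.80, and 5.33.

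In Tet3, 6 more 5hmC peaks were assigned to Bola3 or B230319C09Rik, so that the gene span of 94.8 kb held 14. Of the 14, 7 were higher in neurons than in PP by at least 1.5-fold (22.2% of all 5hmC peaks) and none was lower (7.91%). The widest difference was at chr6:83375713-83375823, where 5hmC was 1.22 (PP), 2.05 (DP), and 4.83 (neurons), a change of 3.69. The PP and DP levels there are log2 values of few normalized reads, so the size of this change is uncertain. An overlapping 5mC peak, chr6:83375685-83375824, had levels of 5.99, 5.73, and 5.11, a change of -0.71. Toward the same end of the gene, 5hmC was 3.25, 4.14, and 4.32 at chr6:83368272-83368446 and 4.69, 5.18, and 5.92 at chr6:83366360-83366549. These peaks lie in 1 gene and were counted by sequencing the same libraries, so they are not independent of each other.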
